A study of Mus musculus with 8 samples.

Results

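RNA of 10 apolipoprotein genes was followed in BMEL cells kept in 3 media. The genes were listed by symbol (Apoa1, Apoa2, Apoa4, Apoa5, Apob, Apoc1, Apoc3, Apoe, Apom and Apoh), and their probes were found through the RefSeq accession that the array design gives each probe. They account for 12 of the 55681 probes that are no controls, and for 10 of the 20660 genes named on the array. A probe was kept when its signal was well above background on at least 2 of 8 arrays, which left 9 of these genes among the 14025 tested; Apoa5 did not pass. BMEL cells are liver progenitors from the mouse embryo, kept as a line that can turn to hepatocytes or to bile duct cells, and the labels name no genetic alteration or added agent. The groups are 3 arrays labelled NoRX, 3 labelled CM and 2 labelled DIFF, after the medium the cells were in. By its title, the series asks how such progenitors respond to medium that was conditioned by human amniotic epithelium. What the abbreviations stand for, the composition of the media and the time in them are not given in the sources used here. All arrays hold RNA of a single cell line, and nothing says that replicates were separate cultures, so the p-values reflect the spread between arrays alone, and that spread may be technical.

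Apolipoproteins are the protein part of lipoproteins, the particles that carry cholesterol and triglyceride through the blood. Hepatocytes make most of them, and the small intestine makes some. Apob is built permanently into very low density and low density lipoprotein, whereas the others move between particles, where they form high density lipoprotein, switch lipases and lipid-modifying enzymes on or off, or serve as ligands for receptors.

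Signals are processed intensities after background subtraction, not scaled between arrays, and levels are log2 of that signal minus the 75th percentile of the same array. Differences are between mean log2 levels, ± SE, and adjusted p-values were computed by limma with Benjamini-Hochberg adjustment over all 14025 genes. The NoRX arrays correlated across genes at 0.993 to 0.994, the CM arrays at 0.991 to 0.993 and the DIFF arrays at 0.960. DIFF replicate 2 stood apart, with 46.4% of its spots well above background against 50.8% to 53.5% on the other arrays, and with 1159 spots of uneven local background against 3 to 90. No spot of an apolipoprotein probe was among them, and none was saturated. Its 75th percentile was also 0.39 higher on the log2 scale than that of DIFF replicate 1, so that the scaled levels of all 9 tested apolipoprotein genes were lower there (by 0.09 for Apob to 0.91 for Apom), although the unscaled signals of 7 were higher. The number of arrays limits the precision of every value.

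In CM, 3 of the 9 tested apolipoprotein genes were higher than in NoRX (Apoc1, Apoh and Apoa1), 2 were lower (Apob and Apoe) and 4 did not pass the test (Apoa2, Apoa4, Apoc3 and Apom). Of all genes tested, 52.2% passed in this comparison, 26.9% higher and 25.3% lower, so a count of 5 of 9 is close to the background. The median difference of the 9 genes was 0.24, against 0.01 over all genes. In bulk RNA, a change in the number of cells that make a transcript cannot be told apart from a change in the amount per cell.

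In DIFF, 6 of the 9 were higher than in NoRX (Apoa1, Apoa4, Apoc3, Apoc1, Apoh and Apoe), 1 was lower (Apob), and Apoa2 and Apom did not pass. The background was 42.2% of all genes, 14.0% higher and 28.2% lower. The median difference of the 9 genes was 0.90, against -0.10 over all genes. Apoa1 and Apoa4 passed the filter on low signals only through their DIFF arrays, so that both had to differ if they were to be tested at all. Both comparisons use the same NoRX arrays. With each array centred on its median in place of the 75th percentile, the median over all genes moved from -0.10 to 0.05 and the calls over all genes from 1965 higher and 3949 lower to 2401 and 2133, while the apolipoprotein genes again gave 6 higher and 1 lower.

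Between DIFF and CM, 4 genes were higher in DIFF (Apoa1, Apoc3, Apoa4 and Apoe), 3 were lower (Apoh, Apoc1 and Apoa2), and Apob and Apom did not pass. Here too Apoa1 and Apoa4 were tested only because of their DIFF arrays. With only probes well above background on all 8 arrays kept, 1 of 5 apolipoprotein genes was higher and 3 were lower. Over all genes 59.2% passed, 23.6% higher and 35.6% lower. The median difference of the 9 was 0.26, against -0.11 over all genes. The 3 lower calls depended on the processing. With median centring or array weights none of the 3 passed, with normexp background correction 1 did, and with quantile normalization all 3 did. With median centring the calls over all genes changed from 3311 higher and 4987 lower to 3932 and 3183. Without DIFF replicate 2 only Apoa2 of the 3 passed.

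**Figure D1:**
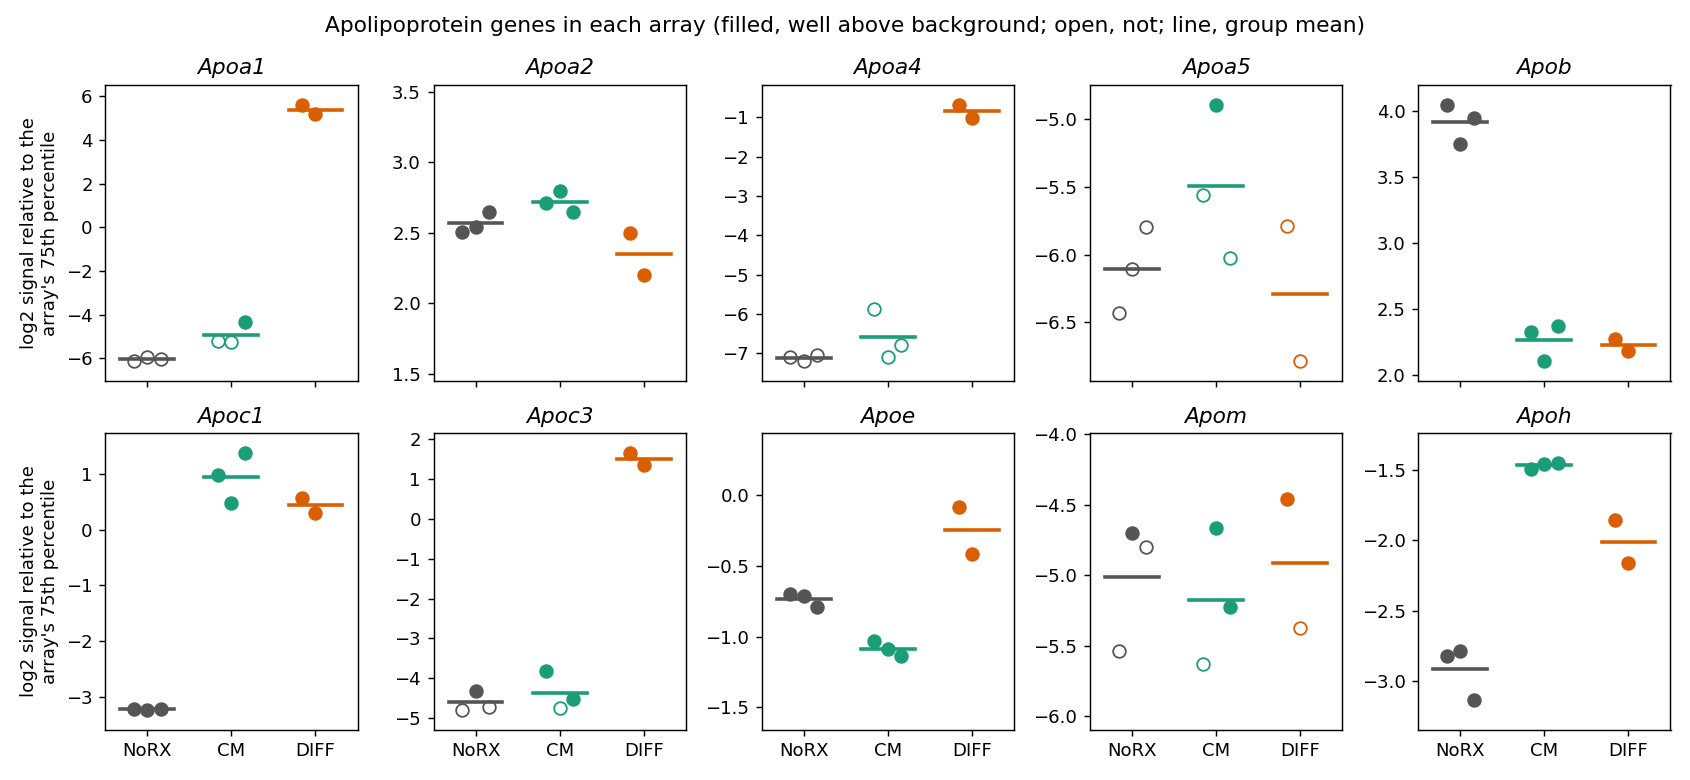
Level of each of the 10 apolipoprotein genes on each array (y axis, log2 signal relative to the array's 75th percentile; each panel has its own scale), by medium (x axis). Filled points are well above background, open points are not, and lines are group means; Apoa1, Apoa4 and Apoc3 are high on both DIFF arrays, Apoc1 on the CM and DIFF arrays, and Apob on the NoRX arrays.

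**Figure D2:**
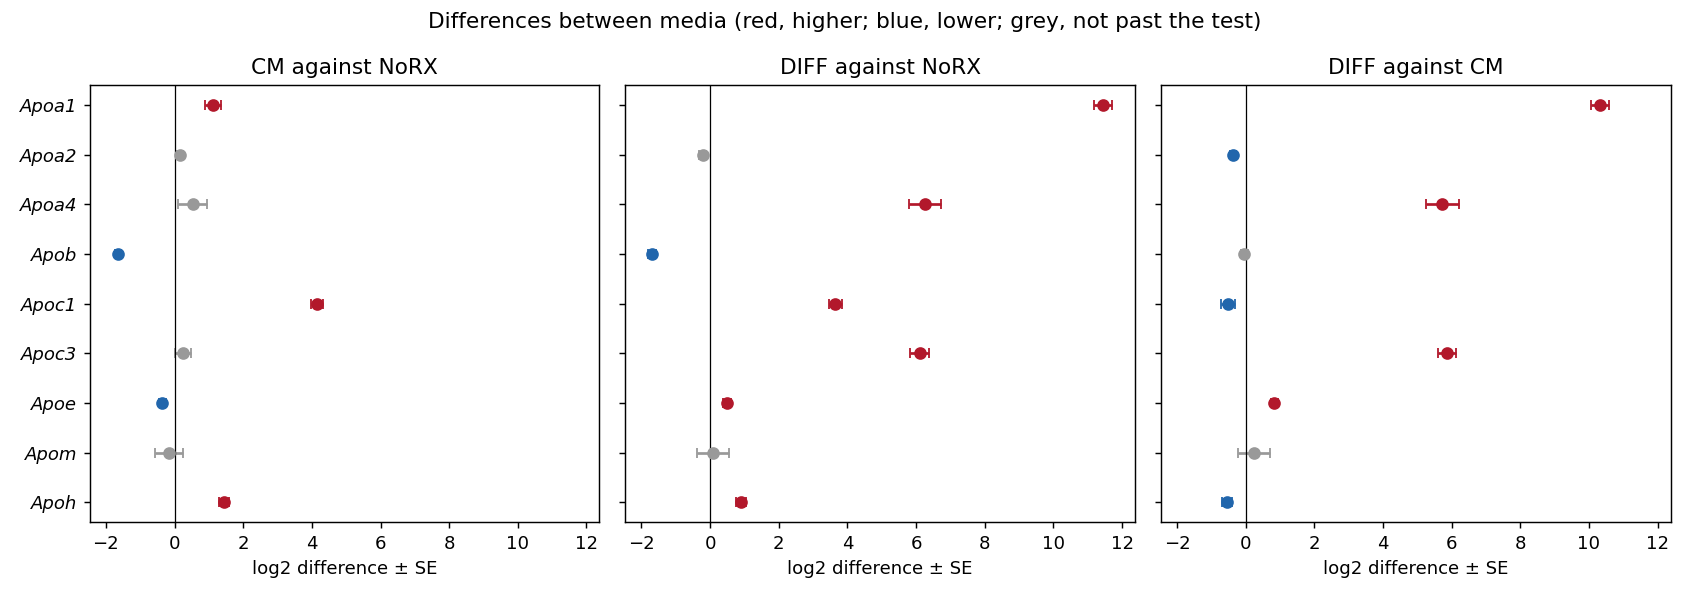
Fitted differences of the 9 tested apolipoprotein genes (x axis, log2 difference; bars, SE of the fit) for the 3 comparisons; red is higher, blue lower and grey not past the test at an adjusted p of 0.05. The points of Apoa1 and Apoa4 are fitted values, and both probes were well above background on 0 NoRX arrays, Apoa1 on 1 CM array and Apoa4 on 0; the text gives a lower bound where a whole group was not above background.

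The genes Apoa1, Apoc3, Apoa4 and Apoa5 lie side by side on chromosome 9, and 3 of these neighbours gave the highest differences between DIFF and NoRX among the apolipoprotein genes. The bases before their RefSeq starts are therefore shown, with those of Apob, the gene that was lower in both CM and DIFF. RefSeq promoter entries (build GRCm38.p6) covered 8 of the 10 genes, with 12 starts in all, and none for Apoc1 and Apoc3. Each line gives the 250 bases before a start, 5′ to 3′ on the plus strand, at chr9:46228380-46228629 for Apoa1, chr9:46240594-46240843 for Apoa4, chr9:46268358-46268607 for the first of the starts of Apoa5 and chr12:7977427-7977676 for Apob. Capitals mark matches to the motifs described after the sequences.
Apoa1: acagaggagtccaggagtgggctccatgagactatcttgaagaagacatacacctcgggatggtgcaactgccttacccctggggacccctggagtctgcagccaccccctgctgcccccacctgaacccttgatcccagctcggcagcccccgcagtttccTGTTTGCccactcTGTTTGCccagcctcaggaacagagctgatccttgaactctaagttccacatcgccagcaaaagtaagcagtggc
Apoa4: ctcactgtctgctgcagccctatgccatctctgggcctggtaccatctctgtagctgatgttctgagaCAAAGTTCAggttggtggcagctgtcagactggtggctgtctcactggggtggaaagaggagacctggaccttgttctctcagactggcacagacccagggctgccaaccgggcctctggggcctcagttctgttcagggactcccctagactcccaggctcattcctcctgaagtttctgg
Apoa5: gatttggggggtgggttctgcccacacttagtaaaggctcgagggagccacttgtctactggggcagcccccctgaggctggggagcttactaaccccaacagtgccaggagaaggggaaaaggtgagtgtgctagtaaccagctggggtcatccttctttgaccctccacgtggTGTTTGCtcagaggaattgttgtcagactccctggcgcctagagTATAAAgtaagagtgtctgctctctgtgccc
Apob: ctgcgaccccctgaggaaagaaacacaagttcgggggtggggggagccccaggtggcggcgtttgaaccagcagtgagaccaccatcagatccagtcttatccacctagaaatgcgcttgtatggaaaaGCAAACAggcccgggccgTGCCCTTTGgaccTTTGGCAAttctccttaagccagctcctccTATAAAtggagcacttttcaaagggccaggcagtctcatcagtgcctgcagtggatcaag
Motifs were searched on both strands from 250 bases before to 50 bases after each start, in these and in all 32851 promoter entries. They were TATAAA (the TATA box, present in 13.6% of entries), CAAAGNNCA (as bound by HNF4, in 6.36%), AGGTCA (the core of nuclear receptor sites, in 16.3%), TGTTTNC (as bound by FOXA factors, in 20.5%), GTTAAT (part of the site bound by HNF1, in 7.1%), TTGCNNAA (as bound by CEBP factors, in 10.8%) and ACANNNTGT (as bound by the glucocorticoid receptor, in 6.85%). In the windows shown, matches did not overlap one another.

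Positions count back from the base before the start, at -1, and give the first base of a match. The Apoa1 window held TGTTTNC at -88 and -75, and no other match. The Apoa4 window held CAAAGNNCA at -182. The Apoa5 window held TGTTTNC at -75 and TATAAA at -31. The Apob window held the most kinds of match, with TGTTTNC at -121, CAAAGNNCA at -103, TTGCNNAA at -90 and TATAAA at -60, the first 3 on the minus strand. Of the 12 starts, CAAAGNNCA was found at those of Apoa4, Apob and Apoh. These matches describe letters only.

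Apoa1 encodes the main protein of high density lipoprotein and the cofactor of the cholesterol-esterifying enzyme Lcat. Its probe gave signals of 10.8, 12.0 and 10.5 on the NoRX arrays, 22.1, 20.7 and 41.8 on the CM arrays, and 36435 and 35080 on the DIFF arrays. Both DIFF arrays stood far above all others, and the CM arrays lay above the NoRX arrays without overlap. The mean level was -6.05 ± 0.10 (SD, n = 3) in NoRX, -4.93 ± 0.50 (n = 3) in CM and 5.39 ± 0.31 (n = 2) in DIFF. The probe was well above background on none of the NoRX arrays, on CM replicate 3 alone in that group and on both DIFF arrays. DIFF was therefore at least 1347-fold higher than NoRX (limma, adjusted p = 1.27e-10). This was measured against the higher of the probe's own signal and the lowest signal well above background on each NoRX array. This and the other lower bounds hold for the main processing described above. Under the alternatives the smallest log2 difference of Apoa1 between DIFF and NoRX was 8.50. Without DIFF replicate 2 the fitted difference was 11.66, and without DIFF replicate 1 it was 11.22. The fitted difference between DIFF and CM was 10.32 ± 0.26 (limma, adjusted p = 1.01e-10), and since only 1 of the 3 CM arrays was well above background, its size rests largely on CM signals near the background.

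The rise of Apoa1 in CM was small and close to the background signal. CM was above NoRX by 1.12 ± 0.23 (limma, adjusted p = 0.00203). With normexp background correction the difference fell to 0.13 (limma, adjusted p = 0.474). Slide row 1 held all NoRX arrays together with CM replicate 1, and slide row 2 held the rest. With the slide row as a block the difference was 0.85 (limma, adjusted p = 0.063), and within row 1, where CM is replicate 1 alone, it was 0.85 as well.

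The array carries 10 spots of the Apoa1 probe, of which 9 or 10 were used per array. On DIFF replicate 1 they ranged from 35003 to 37794, and on DIFF replicate 2 from 33334 to 35852. The spots of both DIFF arrays thus lay within a narrow band, whereas on the NoRX arrays the signal of single spots varied several-fold around the background. These repeated spots share 1 RNA sample and show the error of the array, not that between cultures.

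**Figure D3:**
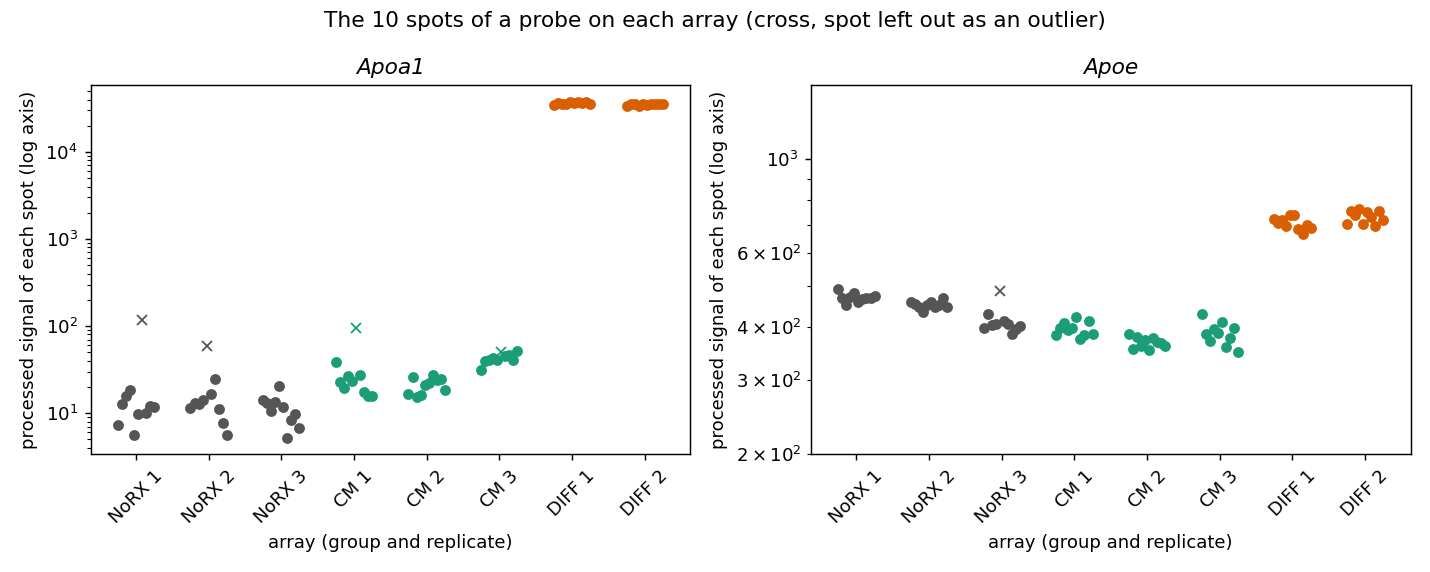
Processed signal of each of the 10 spots of the Apoa1 probe and of the Apoe probe (y axes, logarithmic) on the 8 arrays (x axis); crosses are spots left out as outliers. The spots of Apoa1 on DIFF replicate 1 lie between 35003 and 37794, and the spots of Apoe are higher on both DIFF arrays than on any NoRX or CM array.

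Apoa4, made chiefly by the intestine and by mouse liver and carried on chylomicrons and high density lipoprotein, was also high in DIFF. Its signals were 5.60, 5.01 and 5.29 in NoRX, 13.9, 5.75 and 7.63 in CM, and 463 and 481 in DIFF. The CM signals lay above the NoRX signals, but the probe was well above background on the DIFF arrays alone. In the main processing DIFF was at least 17.8-fold higher than NoRX (limma, adjusted p = 9.74e-07) and at least 18.3-fold higher than CM (limma, adjusted p = 1.18e-06). Under the alternatives the log2 differences of DIFF fell as low as 2.78 against NoRX and 2.75 against CM. The difference between CM and NoRX was 0.53 ± 0.42 (limma, adjusted p = 0.321).

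Apoc3, whose protein restrains lipoprotein lipase and the uptake of remnant particles, gave 27.7, 37.2 and 26.8 in NoRX, 57.4, 29.2 and 37.1 in CM, and 2322 and 2495 in DIFF. CM and NoRX overlapped, and both DIFF arrays lay far above them. The mean level was -4.60 ± 0.25 (SD, n = 3) in NoRX, -4.36 ± 0.48 (n = 3) in CM and 1.50 ± 0.20 (n = 2) in DIFF, with 1 NoRX array and 2 CM arrays well above background. DIFF exceeded NoRX by 6.10 ± 0.27, or 68.7-fold (limma, adjusted p = 1.39e-08), and CM by 5.86 ± 0.27, or 58.1-fold (limma, adjusted p = 1.05e-08). The sizes of both rest on NoRX and CM signals near the background. Under the alternatives the log2 differences of DIFF fell as low as 4.21 against NoRX and 4.24 against CM. CM differed from NoRX by 0.24 ± 0.24 (limma, adjusted p = 0.437). That small difference reached 0.78 with the slide row as a block (limma, adjusted p = 0.0421) and turned to -0.030 without CM replicate 1.

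Apoa5, the fourth gene of the chromosome 9 cluster, promotes the hydrolysis of plasma triglyceride by lipoprotein lipase. Its signals were 8.87, 10.7 and 12.6 in NoRX, 17.1, 26.2 and 13.1 in CM, and 13.4 and 8.83 in DIFF. CM replicate 2 was the only array well above background, so Apoa5 was not tested, and the high DIFF signal of its 3 neighbours was not seen at its probe.

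Apoa2, another structural protein of high density lipoprotein, was measured well above background on all 8 arrays. Its signals were 4353, 4309 and 4403 in NoRX, 5304, 5442 and 5336 in CM, and 4213 and 4476 in DIFF. The unscaled CM signals lay above the other groups, which overlapped each other. The scaled levels were 2.57 ± 0.07 (SD, n = 3) in NoRX, 2.72 ± 0.08 (n = 3) in CM and 2.35 ± 0.21 (n = 2) in DIFF, and CM exceeded NoRX by 0.15 ± 0.09 (limma, adjusted p = 0.177). DIFF lay below CM, with a difference of -0.37 ± 0.10 (limma, adjusted p = 0.00717), but with median centring the difference was -0.20 (limma, adjusted p = 0.218) and within slide row 2 it was -0.37 (limma, adjusted p = 0.0732). DIFF against NoRX gave -0.22 ± 0.10 (limma, adjusted p = 0.0973), which became -0.37 and passed the test without DIFF replicate 1 (limma, adjusted p = 0.00214). A further Apoa2 probe stayed between 4.31 and 8.75 on the 8 arrays and was never well above background.

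Apom, which carries the signalling lipid sphingosine-1-phosphate in high density lipoprotein, stayed near the background in every medium. Its signals were 16.5, 28.4 and 25.2 in NoRX, 16.4, 30.9 and 22.8 in CM, and 33.8 and 23.5 in DIFF. All groups overlapped. The differences were -0.16 ± 0.42 for CM against NoRX (limma, adjusted p = 0.781), 0.09 ± 0.47 for DIFF against NoRX (limma, adjusted p = 0.888) and 0.26 ± 0.47 for DIFF against CM (limma, adjusted p = 0.663).

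Apob, the structural protein of very low density lipoprotein and the one member without which that particle cannot form, was lower in both CM and DIFF than in NoRX. Its signals were 12648, 9958 and 10824 in NoRX, 4055, 3362 and 4412 in CM, and 3600 and 4413 in DIFF. Every NoRX array lay above every array of the other media, and CM and DIFF overlapped. The mean level was 3.92 ± 0.15 (SD, n = 3) in NoRX, 2.27 ± 0.14 (n = 3) in CM and 2.23 ± 0.07 (n = 2) in DIFF. Apob was 3.14-fold lower in CM (difference -1.65 ± 0.10, limma, adjusted p = 2e-07) and 3.23-fold lower in DIFF (difference -1.69 ± 0.11, limma, adjusted p = 2.44e-07). With the slide row as a block the CM difference was -1.59 (limma, adjusted p = 1.57e-05). Within row 1, whose only CM array is replicate 1, it was -1.59 as well.

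A further Apob probe gave 6015, 5414 and 6279 in NoRX, 1961, 1926 and 2611 in CM, and 2123 and 3569 in DIFF. Its groups showed the same separation of NoRX from the other media. Fitted with all probes, the difference in CM was -1.61 ± 0.12 (limma, adjusted p = 1.55e-06), and the difference in DIFF was -1.31 ± 0.14 (limma, adjusted p = 1.69e-05). DIFF against CM was -0.04 ± 0.11 at the first probe (limma, adjusted p = 0.771) and 0.30 ± 0.14 at the further probe (limma, adjusted p = 0.0849), so the probes differed in sign there and neither passed.

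Apoc1, a small exchangeable protein that hinders the receptor-mediated uptake of lipoproteins, rose in both media. Its signals were 82.2, 79.1 and 75.5 in NoRX, 1597, 1092 and 2190 in CM, and 1105 and 1195 in DIFF. NoRX stood far below the other groups, and the DIFF signals lay within the range of the CM signals. The mean level was -3.22 ± 0.01 (SD, n = 3) in NoRX, 0.94 ± 0.44 (n = 3) in CM and 0.43 ± 0.19 (n = 2) in DIFF. DIFF exceeded NoRX by 3.65 ± 0.20, or 12.6-fold (limma, adjusted p = 7.98e-08), and CM exceeded NoRX by 4.16 ± 0.18 (limma, adjusted p = 2.73e-08), with 4.20 within slide row 1 and with the row as a block. DIFF against CM gave -0.51 ± 0.20 (limma, adjusted p = 0.048), and this call was lost under 15 of 22 alternatives, among them the fits without DIFF replicate 2 (-0.37, limma, adjusted p = 0.232), without CM replicate 1 (-0.49, limma, adjusted p = 0.0944) and without CM replicate 3 (-0.30, limma, adjusted p = 0.162).

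Apoe is the ligand through which remnant particles bind receptors of the low density lipoprotein receptor family, and its gene neighbours Apoc1 on chromosome 7. Its signals were 471, 452 and 405 in NoRX, 396, 368 and 386 in CM, and 705 and 730 in DIFF, each the mean of 9 or 10 spots. The groups did not overlap, with CM lowest and DIFF highest. The mean level was -0.73 ± 0.05 (SD, n = 3) in NoRX, -1.09 ± 0.05 (n = 3) in CM and -0.25 ± 0.24 (n = 2) in DIFF.

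Apoe was 1.28-fold lower in CM than in NoRX (difference -0.35 ± 0.10, limma, adjusted p = 0.0115). With the slide row as a block the difference was -0.30 and the call was lost (limma, adjusted p = 0.161). Within row 1, with CM replicate 1 alone, it was -0.30. DIFF was 1.40-fold above NoRX (0.49 ± 0.11, limma, adjusted p = 0.00463) and 1.79-fold above CM (0.84 ± 0.11, limma, adjusted p = 5.96e-05). The change in DIFF against NoRX was small beside those of Apoc1 (3.65) and Apoc3 (6.10). The DIFF call against NoRX held without DIFF replicate 2 (0.65, limma, adjusted p = 0.000196) but not with array weights (0.48, limma, adjusted p = 0.0766) or with the row as a block (0.57, limma, adjusted p = 0.0763).

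Apoh, a plasma glycoprotein that binds anionic phospholipids and is classed with the apolipoproteins, was highest in CM. Its signals were 108, 107 and 79.8 in NoRX, 288, 285 and 312 in CM, and 205 and 218 in DIFF. The groups did not overlap, and DIFF lay between NoRX and CM. The mean level was -2.91 ± 0.19 (SD, n = 3) in NoRX, -1.47 ± 0.02 (n = 3) in CM and -2.01 ± 0.21 (n = 2) in DIFF. CM was 2.72-fold above NoRX (1.45 ± 0.14, limma, adjusted p = 7.11e-06), with 1.42 within slide row 1 and with the row as a block. DIFF was 1.87-fold above NoRX (0.90 ± 0.15, limma, adjusted p = 0.000631), a call lost with array weights (0.88, limma, adjusted p = 0.0651). DIFF lay below CM, with a difference of -0.54 ± 0.15 (limma, adjusted p = 0.00978), but without DIFF replicate 2 it was -0.39 (limma, adjusted p = 0.0504).

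For DIFF against CM, slide row 2 held both DIFF arrays and CM replicates 2 and 3. Within that row Apoc3 differed by 6.13 and Apoe by 0.87, close to the differences over all arrays. The fitted differences of Apoa1 (10.19) and Apoa4 (6.09) were also close. The CM signals of Apoa1, Apoa4 and Apoc3 were near the background. No row held both DIFF and NoRX, so for that comparison the row entered as a block only through CM, and 5 of the 6 higher calls and the lower call were also made in that fit.

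The gene order around the clusters, taken from the RefSeq table of GRCm38.p6, shows how far the changes extended along the chromosomes. On chromosome 9 the order is Pcsk7, Tagln, Sidt2, Pafah1b2, Sik3, Apoa1, Apoc3, Apoa4, Apoa5, Zpr1 and Bud13, with Cadm1 the next gene tested after them. Of the 8 flanking genes tested, 1 was higher and 2 were lower in DIFF than in NoRX, against 14.0% and 28.2% of all genes, so these counts are near the background. Sik3, the gene next to Apoa1, gave 0.45 ± 0.09 (limma, adjusted p = 0.00187), and Zpr1, next to Apoa5, gave 0.14 ± 0.07 (limma, adjusted p = 0.157). Differences of the flanking genes ran from -1.10 (Cadm1) to 0.45, against 6.10 for Apoc3. In the main processing the increases were at least 1347-fold for Apoa1 and at least 17.8-fold for Apoa4. In CM, 1 flanking gene was higher (Sidt2, 0.48) and 1 lower (Sik3, -0.21, a call near the threshold, limma, adjusted p = 0.048).

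On chromosome 7 the cluster of Apoc2, Apoc4, Apoc1 and Apoe did not move as a block. In CM, Apoc1 and Apoc4 were higher, Apoc4 by 1.97 ± 0.20 (limma, adjusted p = 1.31e-05), while Apoe was lower. In DIFF, Apoc1 and Apoe were higher than in NoRX and Apoc4 gave 0.60 ± 0.23 (limma, adjusted p = 0.0518). Apoc2 was not analysed here. Of the 9 flanking genes tested, 1 was higher and 3 were lower in CM than in NoRX, with 26.9% higher and 25.3% lower of all genes. In DIFF against NoRX, 0 were higher and 5 lower, with 14.0% higher and 28.2% lower of all genes. Tomm40, which adjoins Apoe, gave -0.60 ± 0.08 in CM (limma, adjusted p = 7.94e-05) and -0.43 ± 0.09 in DIFF (limma, adjusted p = 0.00223).

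**Figure D4:**
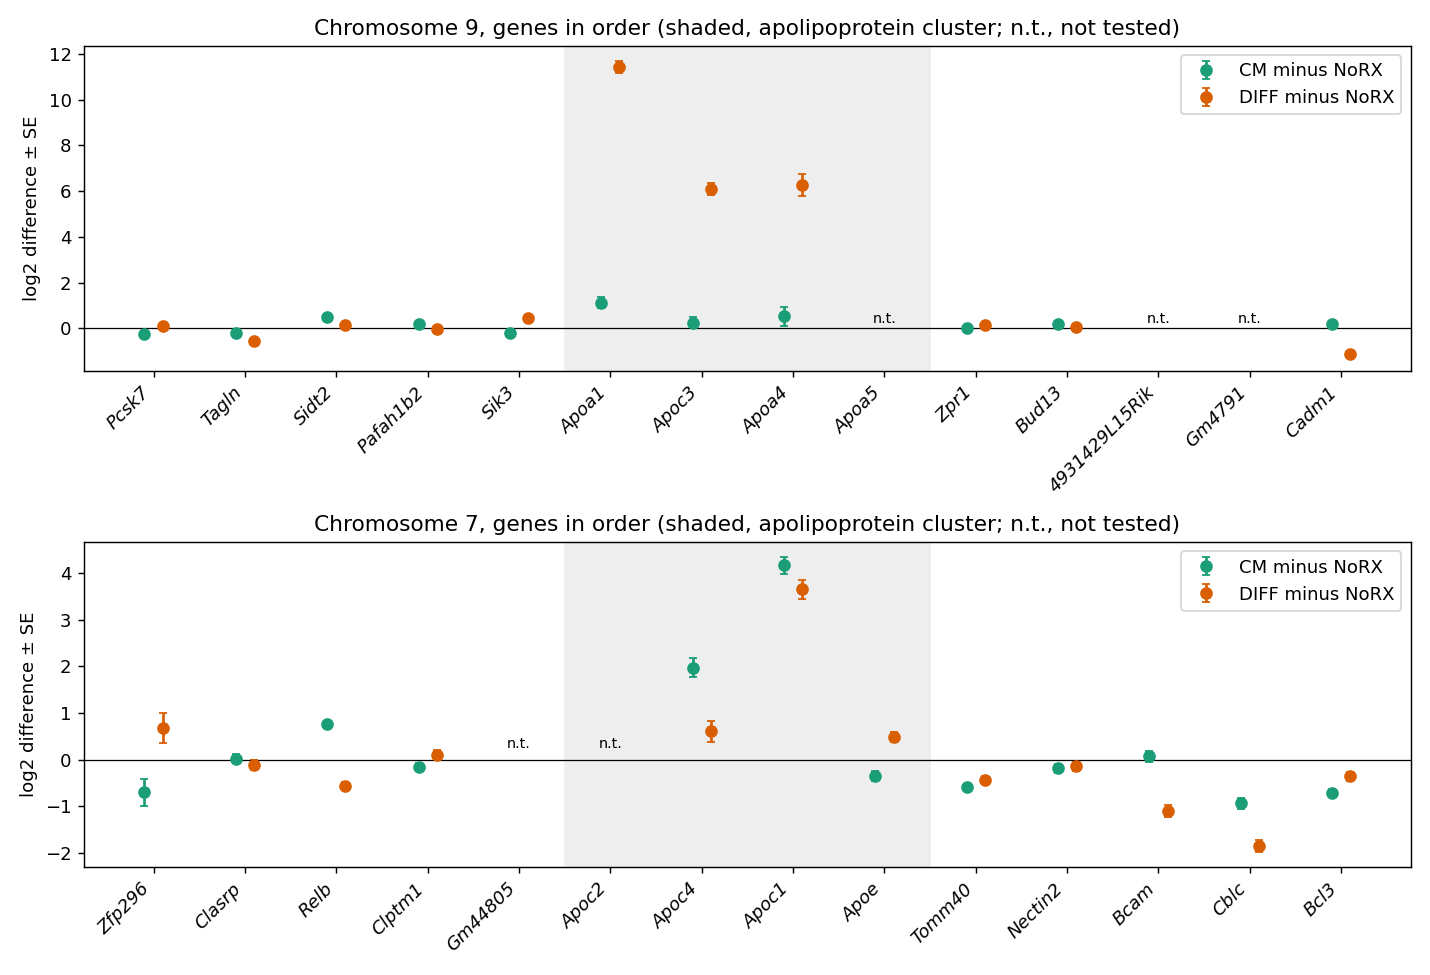
Fitted differences (y axes, log2 difference; bars, SE) of the genes along chromosomes 9 and 7 in their RefSeq order (x axes, rank and not distance), for CM minus NoRX and DIFF minus NoRX; shading marks the apolipoprotein clusters and n.t. genes not tested. Apoc3 stands at 6.10 in DIFF and the flanking genes of chromosome 9 lie between -1.10 and 0.48. The DIFF points of Apoa1 and Apoa4 are fitted against NoRX arrays not well above background. Their lower bounds in the main processing are 1347-fold and 17.8-fold.

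Genes whose profiles over the 8 arrays lay closest to each apolipoprotein gene were found by the root mean square distance between profiles centred on their own means. The points are arrays of 3 groups, so that genes changed alike between groups come out as near. Closest to Apoa1 was Hp, which encodes the haemoglobin-binding protein haptoglobin, at a distance of 0.42, and Hp was at least 1288-fold higher in DIFF than in NoRX. Closest to both Apoc3 and Apoa4 was Azgp1, a secreted zinc-binding glycoprotein, at 0.29 and 0.36, with a difference of 6.18 ± 0.21 between DIFF and NoRX. Apoc1 was nearest to Kcnj12, a potassium channel gene, at 0.37. Apoh lay nearest to Nupr1l at 0.05 and Apob to Neurl1a at 0.11. The distances are not scaled to the size of the changes, so they do not rank how closely the shapes matched. The correlation was 0.997 for Apoa1 with Hp and 0.991 for Apob with Neurl1a. Apoe was nearest to Urb1 (0.05) and Apoa2 to Hdlbp, which encodes a protein named for binding high density lipoprotein (0.02).

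Genes that act with apolipoproteins were counted from lists. Their counts stand against 26.9% higher and 25.3% lower of all genes in CM, and 14.0% higher and 28.2% lower in DIFF. Of the list genes named with their values, Ces1d, Abcg1, Saa2 and Hnf4g passed the filter on low signals only through CM arrays, Saa3 and Klf15 only through DIFF arrays and Pon3 only through NoRX arrays, so that each had to differ to be tested. The list of other apolipoproteins and related proteins gave 3 higher and 5 lower of 9 tested in CM against NoRX (median -0.24) and 0 higher and 1 lower in DIFF against NoRX (median -0.05). Apobr, a receptor for triglyceride-rich particles, fell in CM (difference -2.48 ± 0.09, limma, adjusted p = 6.94e-09) and was higher in DIFF than in CM by 2.43 ± 0.10. Apol9b and Apol9a, members of the apolipoprotein L family with closely related sequences, were higher in CM by 0.82 and 0.76, calls that were lost with the slide row as a block. Clu, a chaperone also called apolipoprotein J, was lower in CM (-0.54 ± 0.08) and in DIFF (-0.57 ± 0.09).

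For assembly and secretion of lipoproteins, 8 of 18 genes were higher and 4 lower in CM than in NoRX (median 0.19), and 2 were higher and 6 lower in DIFF than in NoRX (median -0.10, as for all genes). Mttp, which loads lipid onto Apob, did not pass in CM (-0.22 ± 0.17, limma, adjusted p = 0.32) and was higher in DIFF (0.72 ± 0.19, limma, adjusted p = 0.0119), a call lost with array weights (limma, adjusted p = 0.291) and with the slide row as a block (limma, adjusted p = 0.123). Cideb, which acts in the lipidation of very low density lipoprotein, and Sar1b, a GTPase of its transport carriers, were higher in CM by 1.12 ± 0.09 and 0.87 ± 0.08. Prap1 was lower in CM (-1.11 ± 0.14) and in DIFF (-1.35 ± 0.16). Tm6sf2 (-0.98 ± 0.10) and the lipid droplet coat gene Plin2 (-0.77 ± 0.09) were lower in DIFF than in NoRX. Ces1d was at least 1.90-fold higher in CM than in NoRX (limma, adjusted p = 0.00535), a call lost with normexp background correction (limma, adjusted p = 0.406) and with the slide row as a block (limma, adjusted p = 0.0501). With median centring the DIFF counts were 2 higher and 3 lower.

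Among enzymes, transfer proteins and exporters of plasma lipid, 5 of 15 were higher and 6 lower in CM than in NoRX (median 0.12), and 4 were higher and 5 lower in DIFF than in NoRX (median 0.13). The cholesterol exporter gene Abcg1 was at least 2.98-fold higher in CM than in NoRX, and the sterol exporter gene Abcg5 at least 1.40-fold in CM and at least 8.81-fold in DIFF. Saa3, an acute phase protein of high density lipoprotein, was at least 7.59-fold higher in DIFF (limma, adjusted p = 5.94e-05), and Saa2 at least 1.42-fold higher in CM (limma, adjusted p = 0.000927), a call lost with normexp background correction (limma, adjusted p = 0.101). Pon3, a lactonase carried on the same particle, was at least 1.88-fold lower in CM and at least 1.69-fold lower in DIFF than in NoRX, the DIFF call being lost with array weights (limma, adjusted p = 0.228), with the slide row as a block (limma, adjusted p = 0.153) and with normexp background correction (limma, adjusted p = 0.99). Pltp, the phospholipid transfer protein, was lower in DIFF than in NoRX, with a difference of -1.37 ± 0.22 (limma, adjusted p = 0.000374), or -1.04 with the slide row as a block (limma, adjusted p = 0.0601).

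Receptors and uptake proteins gave 8 higher and 1 lower of 19 in CM against NoRX (median 0.26; all genes, 26.9% and 25.3%), and 3 higher and 10 lower in DIFF against NoRX (median -0.37; all genes, 14.0% and 28.2%), or 3 and 3 with median centring. Cd36, a scavenger receptor and fatty acid carrier, was at least 2.24-fold higher in CM and at least 18.7-fold higher in DIFF. Sort1, a sorting receptor that binds Apob, gave 3.52 ± 0.18 in DIFF and -0.03 ± 0.16 in CM. The high density lipoprotein receptor gene Scarb1 (0.81 ± 0.08) and its relative Scarb2 (0.95 ± 0.08) were higher in CM. Cubn, a receptor that takes up Apoa1, was lower in DIFF (-2.06 ± 0.12). Lrp8, a receptor that binds Apoe, was higher in CM by 1.29 ± 0.21, although with all probes of the gene averaged the difference was 0.17 (limma, adjusted p = 0.519). In DIFF, Lrp8 was well above background on 1 of 2 arrays and gave -1.01 ± 0.24 (limma, adjusted p = 0.00556), or -0.14 with normexp background correction (limma, adjusted p = 0.503), and the call was also lost with array weights and with the slide row as a block.

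Of 37 transcription factors and nuclear receptors of the liver, 18 were higher and 9 lower in CM than in NoRX (median 0.27; all genes, 26.9% and 25.3%), and 10 were higher and 18 lower in DIFF than in NoRX (median -0.26; all genes, 14.0% and 28.2%), or 11 and 9 with median centring. Foxa1 was higher in CM by 1.79 ± 0.07, and the nuclear receptor partner Rxra by 1.66 ± 0.11. Hnf4g was at least 1.80-fold higher in CM, a call lost with the slide row as a block (limma, adjusted p = 0.131), with normexp background correction and without CM replicate 2 or NoRX replicate 3. Rora was lower in CM (-1.49 ± 0.16). In DIFF, the Kruppel-like factor Klf15 was at least 68.3-fold higher and the fatty acid receptor Ppara was higher by 2.01 ± 0.11 than in NoRX, whereas Gata4 (-1.54 ± 0.12) and Creb3l3 (-1.48 ± 0.09), an inducer of apolipoprotein genes in liver, were lower.

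Between DIFF and CM, the counts in DIFF were 3 higher and 3 lower of 9 other apolipoproteins (median -0.03), 3 and 10 of 18 assembly genes (median -0.33), 7 and 4 of 15 enzyme and exporter genes (median 0.29), 3 and 12 of 19 receptor genes (median -0.51) and 5 and 19 of 37 transcription factors (median -0.35), against a median of -0.11, 23.6% higher and 35.6% lower over all genes. With median centring the assembly genes gave 3 and 6 and the transcription factors 11 and 14. Ppara was higher in DIFF than in CM by 3.20 ± 0.11, and Creb3l3 differed by -2.13 ± 0.09.

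**Figure D5:**
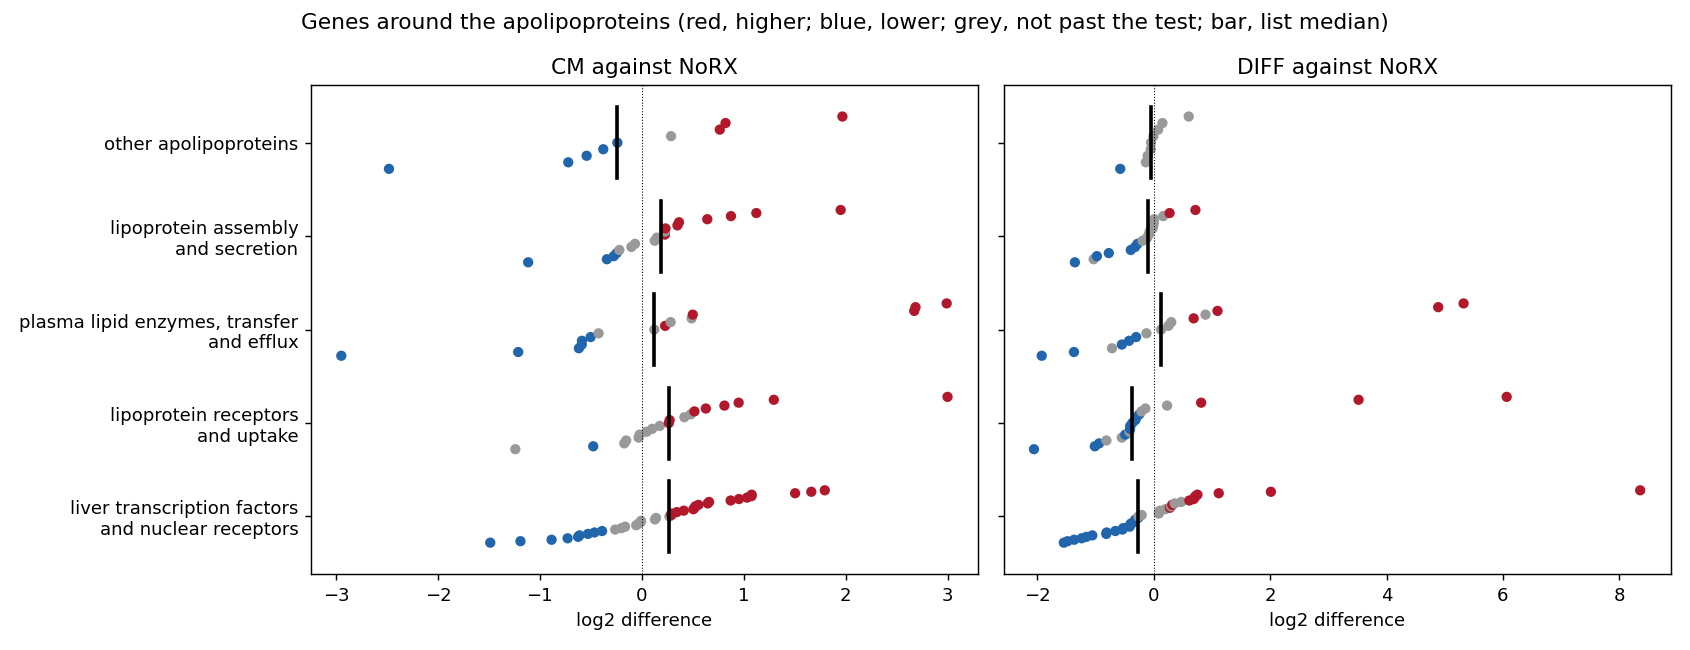
Fitted difference of each tested gene of 5 lists around the apolipoproteins (x axes, log2 difference; rows, lists; each panel has its own scale) in CM and DIFF against NoRX. Red is higher, blue lower and grey not past the test, and bars are list medians, which lie between -0.37 and 0.27.

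Markers of cell types were read beside these results. Of 19 hepatocyte markers on the array, 9 were well above background on each NoRX array, 13 to 16 on CM arrays and 15 to 17 on DIFF arrays. Their summed relative signal was 85.9 to 88.0 in NoRX, 75.1 to 85.6 in CM and 295 to 375 in DIFF. In DIFF against NoRX, 15 of the 18 tested were higher and 0 lower, against 14.0% and 28.2% of all genes. Cps1 and Cyp3a11 passed the filter only through DIFF arrays, so that both had to differ to be tested. In CM against NoRX, 8 were higher and 3 lower, against 26.9% and 25.3% of all genes. Asgr1 and G6pc passed the filter only through CM arrays, so that they too had to differ to be tested. Alb and Ttr were well above background on every array. Of the 7 hepatoblast and fetal liver markers, 3 to 4 were so on each array. Afp, Hnf4a and Cdh1 were so on every array, Dlk1 on 1 CM array alone, and Gpc3, Igf2 and Tbx3 on none. Of the 12 cholangiocyte markers, 9 to 11 were above background on each array. Of the 11 cholangiocyte markers tested, 2 were higher and 5 lower in DIFF than in NoRX. Of 12 enterocyte markers, among them Apoa4 itself, 8 to 9 were above background in NoRX and in CM and 9 to 10 in DIFF. Their summed relative signal ranged from 92.8 to 97.0 in NoRX, from 105 to 108 in CM, and was 66.5 and 283 on the DIFF arrays. The sums of the DIFF arrays thus differed several-fold from each other. A sum is weighted to the brightest genes, and the mean log2 level of the 12 markers was -0.46 on DIFF replicate 1 and 0.02 on DIFF replicate 2. Of the 10 enterocyte markers tested, 4 were higher and 5 lower in DIFF than in NoRX. Among the higher were Apoa4 itself, tested only because of its DIFF arrays, and Cdhr5, with a wide error (4.04 ± 1.45, limma, adjusted p = 0.0445). Of 13 macrophage and leukocyte markers, which matter for Apoe and Apoc1 because macrophages make both, 4 to 6 were above background on each array. C1qb, Cd14, Csf1r and Itgam were so on all 8 arrays, and Adgre1, Cx3cr1, Lyz2 and C1qc on none. The summed relative signal of the macrophage and leukocyte markers was 17.3 to 18.9 in NoRX, 21.8 to 22.7 in CM and 11.5 to 13.3 in DIFF. Of the 5 tested, 0 were higher and 3 lower in DIFF than in NoRX. The part of such cells in the apolipoprotein results was not tested.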

How the data were processed

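Total RNA of 8 samples of BMEL cells, labelled with Cy3, was read on 1 slide of Agilent SurePrint G3 mouse arrays, per the labels' protocols. The deposited scanner files, written by Agilent Feature Extraction 11.0.1.1 (per the submitters' processing notes), hold background-subtracted spot intensities, and no scaling between arrays is recorded. The series value table repeats these intensities exactly.

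The levels were computed here as log2 of the deposited signal minus each array's 75th percentile. Control and outlier spots were dropped and repeated spots averaged. A gene with several kept probes was read from its brightest. Names came from a RefSeq table (GRCm38.p6) for 27235 probes; the other 28446 were not tested. The array design uses another build, so only RefSeq promoter windows carry coordinates. One limma model (version 3.58.1, R 4.3.3, trended eBayes) covered all 8 arrays, two-sided, with a threshold of 0.05 on the adjusted p. The code was tested on simulated data.

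The apolipoprotein genes, the lists and the tests were chosen with earlier results of these data known. Named were all 10 apolipoprotein genes, the nearest profiles, the chromosome neighbours and, per list and comparison, up to 4 genes with the largest differences that passed the test and were well above background on every array of a group.

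Alternatives covered scaling, background, filter, probe choice, slide row, array weights, a block for the replicate number and each array left out; those within a slide row, and without spots of uneven background, were chosen after seeing the data. The labels of DIFF replicate 2 conflict, its source name numbering it 1, so averaging both DIFF arrays was an alternative.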

Additional observations from a re-analysis of the deposited data

How the results depend on the processing

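Of 573 values of single apolipoprotein genes recomputed under alternatives, 525 kept their direction and side of the threshold, 29 lost the call, 8 gained it and 11 changed sign, none of them a called value. Some alternatives could not change a difference, so 525 overstates the agreement. These were the value table, which repeats the scanner intensities, and leaving out spots of uneven background, none of them in these probes. Leaving out an array of the group not compared was another. For CM against NoRX, Apoc3 turned to -0.026 with normexp and ran from -0.030 to 0.43 with 1 array left out, and Apom ran from -0.42 to 0.068. For DIFF against NoRX, Apom was -0.59 with the slide row as a block and ran from -0.36 (without DIFF replicate 1; -0.17 without NoRX replicate 1) to 0.55. For DIFF against CM, Apom ran from -0.20 to 0.71, and Apob was 0.13 with the mean of its probes and with median centring and ran from -0.12 to 0.014, being 0.0067 without DIFF replicate 2. Apob in CM and DIFF, Apoc1 in CM and DIFF, Apoh in CM, and Apoa1, Apoa4 and Apoc3 in DIFF kept their calls against NoRX under every alternative that tested them.

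Calls over all genes for CM against NoRX fell from 7326 to 4795 with the slide row as a block, and lower apolipoprotein genes from 2 to 1. For DIFF against NoRX, calls over all genes fell from 5914 to 3038 with array weights and 2803 with the row as a block. Of the apolipoprotein genes, 3 rather than 6 were higher when only probes above background on all 8 arrays were kept, which removes Apoa1, Apoa4 and Apoc3, and 2 rather than 1 were lower with both DIFF arrays averaged. For DIFF against CM, calls over all genes fell from 8298 to 5378 with array weights, higher apolipoprotein genes from 4 to 1 under the strict filter, and lower ones from 3 to 0 with array weights, 0 with median centring and 1 with normexp. The cause was not tested.

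With 1 array left out, calls over all genes ran from 6105 to 9306 for CM against NoRX, 4730 to 8485 for DIFF against NoRX and 7339 to 9784 for DIFF against CM. Higher apolipoprotein genes ran from 3 to 4, 6 to 6 and 4 to 4, and lower ones from 2 to 2, 1 to 2 and 1 to 3, in the same order. Where 1 DIFF array remained, its spread was taken to be that of the other groups. Deviations of same-numbered arrays correlated at -0.0073, 0.0094 and -0.057 for NoRX with CM, -0.0239 and -0.0250 for NoRX with DIFF, and 0.0867 and 0.175 for CM with DIFF. Only CM replicate 2 with DIFF replicate 2 reached 0.1, and the numbers were not taken to pair arrays. Both DIFF arrays deviate equally and oppositely from their mean, so their values are not separate checks. With the replicate number as a block, calls over all genes were 6860, 5286 and 7763, and Apoc1 lost its call in DIFF against CM (-0.40, limma, adjusted p = 0.06). Signals near background limit Apoa1, Apoa4 and Apoc3 in NoRX and CM, Apoa5 and Apom.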
